A study of Homo sapiens with 6 samples.

Results

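Fibronectin (FN1) and 9 genes that act as its receptors or signal from them were examined in PQBP1-depleted ovarian cancer cells. The set holds 10 of the 32679 genes in the deposited table, taken by symbol: FN1, the integrin alpha subunits ITGA4, ITGA5 and ITGAV, the beta subunits ITGB1, ITGB3 and ITGB5, the syndecan SDC4, the hyaluronan receptor CD44, and PTK2, which encodes focal adhesion kinase. FN1 was chosen by its rise in these same samples, so its values below are a description and carry no test. The other 9 are genes with a known link to fibronectin. They and the further gene lists were chosen with earlier results of these data known. Gene expression was measured by paired-end RNA-seq of poly(A) RNA from HEY cells, an established ovarian cancer line, with 3 shNC samples and 3 shPQBP1 samples. The methods describe stable lentiviral lines. The shNC samples had the control hairpin and no treatment by the labels, and the shPQBP1 samples had the hairpin against PQBP1 and doxycycline, the inducer, at 1 µg/ml. All 6 samples were labelled day 3, whereas the methods name 48 or 72 h of induction in general and a figure legend on splicing in these PQBP1-depleted cells gives 48 h, so the sources differ on the time. Hairpin and doxycycline therefore differ together between the groups and cannot be told apart.

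Fibronectin is a large dimeric glycoprotein of the extracellular matrix that cells secrete and assemble into fibrils. The α5β1 integrin (ITGA5 with ITGB1) is its classical receptor and drives fibril assembly, while α4β1, αvβ1, αvβ3 and αvβ5 also bind it, the αv integrins together with other ligands such as vitronectin and osteopontin. An integrin reaches the cell surface only as a pair of an alpha and a beta chain, and ITGB1 is shared by most alpha chains. SDC4 is a transmembrane proteoglycan that binds the heparin-binding region of fibronectin and acts with α5β1 in focal adhesions, CD44 is best known as the receptor for hyaluronan, and focal adhesion kinase is activated when integrins cluster on the matrix. In the peritoneal cavity, fibronectin is a major adhesive ligand for ovarian carcinoma cells.

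The promoter of FN1 is shown because FN1 had the largest difference of the set, and that of SDC4 because it is the other searched promoter with a TATA box. Each is the 250 bases upstream of the RefSeq start site in GRCh38.p14, written 5′ to 3′ on the strand of the gene. FN1 lies at chr2:215436069-215436318 on the minus strand and SDC4 at chr20:45348425-45348674 on the minus strand. Capitals mark exact matches, on either strand, to TGACGTCA (the cAMP response element), CCAAT (the CCAAT box), TATAA (the TATA box), GGGCGG (the GC box) and TGANTCA (the AP-1 site).
FN1: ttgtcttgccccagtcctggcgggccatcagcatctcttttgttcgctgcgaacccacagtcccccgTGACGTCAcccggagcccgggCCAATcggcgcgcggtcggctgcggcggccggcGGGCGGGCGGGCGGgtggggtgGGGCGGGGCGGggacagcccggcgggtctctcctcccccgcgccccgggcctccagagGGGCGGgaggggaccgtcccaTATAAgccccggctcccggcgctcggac
SDC4: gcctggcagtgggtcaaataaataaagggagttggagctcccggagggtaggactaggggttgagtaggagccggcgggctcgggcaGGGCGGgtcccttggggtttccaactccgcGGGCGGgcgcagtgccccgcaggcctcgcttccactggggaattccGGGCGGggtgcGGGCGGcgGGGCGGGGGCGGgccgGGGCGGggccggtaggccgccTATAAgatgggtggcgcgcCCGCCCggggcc
The FN1 promoter held 1 cAMP response element at -183 to -176 from the start site, 1 CCAAT box at -162 to -158, 1 TATA box at -28 to -24 and 6 GC boxes, some of which overlap, and no AP-1 match. Of 27305 promoters of the same length, 1.77% held the cAMP response element, 33.0% the CCAAT box, 19.6% the TATA box, 42.3% the GC box and 6.6% the AP-1 site. SDC4 held 8 GC boxes and a TATA box at -31 to -27. RefSeq promoters were matched and searched for 8 of the 10 genes. Among those 8, the cAMP response element and the CCAAT box were found in FN1 alone. ITGB1 held 3 GC boxes, ITGB5 and CD44 each held 2, ITGA5 held 1, and ITGA4 and ITGAV held no match to any of the 5 motifs. The base composition of the FN1 window was 76.4% G and C. These matches are letters in a window and do not show binding. ITGB3 and PTK2 were not searched.

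The values are FPKM as deposited (fragments per kilobase, relative to all mapped fragments of the sample), which take account of gene length and can be compared between genes. Differences were tested with limma on log2(FPKM + 0.1) over the 11413 genes that averaged 1 FPKM or more, and adjusted p is the Benjamini-Hochberg value over all of them. The log2 fold changes are on this scale, shPQBP1 over shNC, and understate the change of low genes. PQBP1 was 7.18, 6.67 and 6.93 FPKM in shNC samples 1, 2 and 3 and 1.68, 1.72 and 1.44 in shPQBP1 samples 1, 2 and 3, and so fell in the samples labelled as depleted (log2 fold change -2.04 ± 0.10 SE, adjusted p = 0.00154). The FPKM of all genes summed to 278285.8 to 318484.3 per sample, and the read depth is unknown. The shNC sample 1 stood apart. It correlated with the other samples at 0.926 to 0.955 across genes, against 0.956 to 0.969 among the other 5, and its deviation from the other shNC samples followed GC content across genes (Spearman's rho 0.613 over 11385 genes, which are not independent replicates). The log2 fold change itself also followed GC content (rho -0.459). Results were therefore also computed without this sample and after the trends with GC content and transcript length had been removed (GC and length correction). The epithelial keratins KRT8 (52.76 to 65.61 FPKM) and KRT18 (76.56 to 94.56) and the Müllerian factor PAX8 (12.33 to 24.08) were present in every sample, whereas CDH1 and MUC16 did not exceed 0.06 FPKM. The other markers of this list were low: KRT19 (1.19 to 2.1 FPKM), EPCAM (0.79 to 1.13) and WT1 (0.31 to 0.71). Since fibroblasts also make fibronectin, their markers were read as well. The 8 fibroblast markers stayed at or under 0.47 FPKM in every sample and summed to 0.47 to 1.24 in shNC and 0.28 to 1.12 in shPQBP1. Of 5 endothelial markers, 4 stayed below 1 FPKM, and the sums were 2.45 to 3.33 in shNC and 3.3 to 3.97 in shPQBP1, carried by CDH5. The 4 leukocyte markers read summed to 9.12 to 15.75 and 12.29 to 21.26, carried by CD68, with PTPRC listed at 0 in every sample. In bulk RNA, a change in the share of cells and a change in RNA per cell cannot be told apart.

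FN1 was 42.51, 44.57 and 43.08 FPKM in shNC samples 1 to 3 and 127.42, 154.68 and 149.54 FPKM in shPQBP1 samples 1 to 3. The shNC samples lay close together, and the lowest shPQBP1 sample was far above all of them. The mean was 43.39 ± 1.06 (SD, n = 3) in shNC and 143.88 ± 14.5 (SD, n = 3) in shPQBP1, a 3.32-fold higher level (log2 fold change 1.72 ± 0.09 SE). FN1 (ENSG00000115414) spans chr2:215360440-215436073 on the minus strand in hg38, and its canonical transcript has 46 exons and 8390 bases. Ranked by FPKM among all 32679 genes, FN1 moved from places 849, 770 and 791 in the shNC samples to 252, 200 and 206 in the shPQBP1 samples. In shNC, FN1 lay below ITGB1 and SDC4. In shPQBP1 it lay above SDC4 and below ITGB1 only, with no overlap of the samples with either neighbour. In shNC sample 1, FN1 was 0.97 times the mean of the other shNC samples. The log2 fold change of FN1 was 1.71 without that sample and 1.72 after the GC and length correction.

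**Figure D1:**
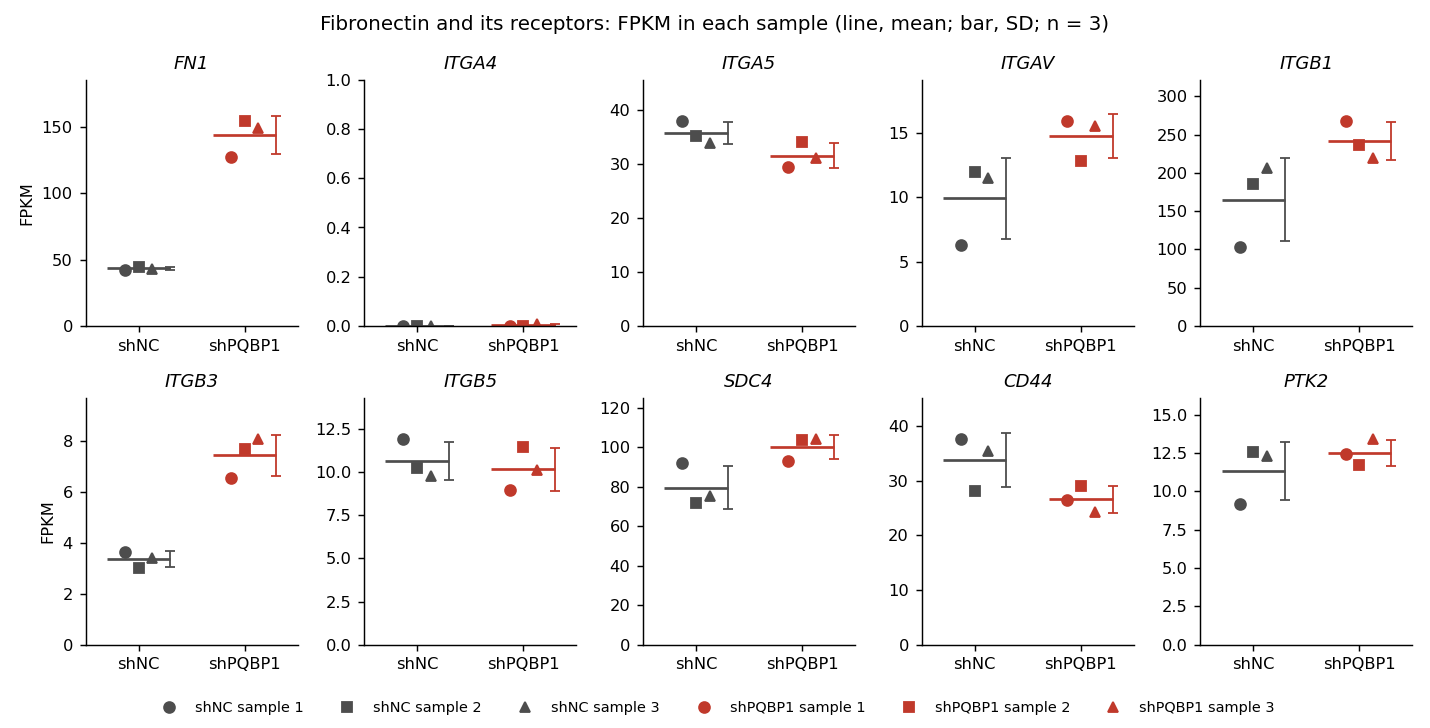
FPKM (vertical axes, linear from 0, a separate scale for each gene) of FN1 and the 9 receptor and kinase genes in the 3 shNC samples (grey) and the 3 shPQBP1 samples (red), with a symbol for each sample, a line for the mean and a bar for the SD. FN1 and ITGB3 show shPQBP1 samples well above every shNC sample, and shNC sample 1 (grey circle) is the lowest value for ITGAV, ITGB1 and PTK2.

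Of the 9 receptor and kinase genes, 8 passed the filter on low values, and 1 of these, ITGB3, had an adjusted p under 0.05, higher in shPQBP1. Over all genes tested, 2.91% were called in either direction, 1.73% as higher and 1.18% as lower. At an unadjusted p under 0.05, 3 of the 8 were called (ITGB3 and SDC4 higher, CD44 lower), against 23.6% of all genes. Of the 11413 genes tested, 1353 were higher and 1336 lower at that threshold. The groups did not overlap for 4 of the 8, all higher in shPQBP1 (ITGAV, ITGB1, ITGB3 and SDC4), and for 0 lower, against 17.3% of all genes higher and 17.1% lower. The median log2 fold change of the 8 was 0.25, against 0.021 over all genes tested. The members that follow are ordered by role, alpha chains, beta chains, co-receptors and kinase.

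ITGA4, the alpha chain of the leukocyte-type fibronectin receptor α4β1, was at or near 0: it was listed at 0 in 5 samples and at 0.01 FPKM in shPQBP1 sample 3. It was not tested. ITGA5 (chr12:54395261-54419266, minus strand), the alpha chain of the classical receptor, was 38.03, 35.23 and 33.98 FPKM in shNC and 29.53, 34.02 and 31.14 FPKM in shPQBP1. The groups overlapped by a small margin. The means were 35.75 ± 2.07 and 31.56 ± 2.27 (SD, n = 3), and the log2 difference was not past the threshold (-0.18 ± 0.09 SE, 95% interval -0.39 to 0.03, adjusted p = 0.256). After the GC and length correction it was -0.04. The interval covers both no difference and a moderately lower level of ITGA5.

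ITGAV (chr2:186590010-186680901, plus strand), the alpha chain of the αv receptors, was 6.30, 12 and 11.49 FPKM in shNC and 15.95, 12.82 and 15.52 FPKM in shPQBP1. Every shPQBP1 sample was above every shNC sample, but the gap to shNC samples 2 and 3 was small and shNC sample 1 was much lower than both. Its means were 9.93 ± 3.15 and 14.76 ± 1.70 (SD, n = 3), with a log2 fold change of 0.62 ± 0.26 (SE) and an adjusted p of 0.217. In shNC sample 1, ITGAV was 0.536 times the mean of the other shNC samples. Without that sample the log2 fold change was 0.32 (adjusted p = 0.170), and after the GC and length correction it was 0.35 (adjusted p = 0.107). The canonical ITGAV transcript has 38.3% G and C, against a median of 47.5% over the tested genes. The part of base composition in this difference was not tested further.

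ITGB1 (chr10:32887273-33005792, minus strand), the shared beta chain, was the most abundant gene of the set in both groups. It was 103.17, 186.09 and 206.56 FPKM in shNC and 268.22, 236.23 and 219.42 FPKM in shPQBP1. The groups did not overlap, yet the lowest shPQBP1 sample was close to the highest shNC sample. The means were 165.27 ± 54.7 and 241.29 ± 24.8 (SD, n = 3), and the difference did not pass the test (log2 fold change 0.60 ± 0.26 SE, 95% interval -0.04 to 1.24, adjusted p = 0.229). ITGB1 in shNC sample 1 was 0.526 times the mean of the other shNC samples, much like ITGAV, and its canonical transcript is likewise poor in G and C at 39.5%. The log2 fold change was 0.29 without that sample (adjusted p = 0.169) and 0.40 after the correction (adjusted p = 0.217).

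ITGB3 (ENSG00000259207, chr17:47253827-47313743, plus strand) encodes the beta chain that pairs with αv in the αvβ3 receptor for fibronectin, vitronectin and osteopontin. It was 3.63, 3.01 and 3.41 FPKM in shNC and 6.55, 7.71 and 8.08 FPKM in shPQBP1. The 2 groups were well separated, and shNC sample 1 was close to the other shNC samples. ITGB3 rose from a mean of 3.35 ± 0.314 to 7.45 ± 0.798 FPKM (SD, n = 3), a 2.22-fold higher level (log2 fold change 1.13 ± 0.12 SE, 95% interval 0.84 to 1.42, adjusted p = 0.0132). The log2 fold change was 1.05 to 1.22 when each sample was left out in turn. The adjusted p was 0.0176 to 0.0786 in these fits of 5 samples, and it was above 0.05 without shNC sample 3 (0.058), shPQBP1 sample 2 (0.0722) and shPQBP1 sample 3 (0.0786). After the GC and length correction the log2 fold change was 1.15. The length-scaled level of ITGB3 remained the lowest of the tested genes of the set in both groups.

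ITGB5 (chr3:124761948-124901418, minus strand) encodes the beta chain that pairs with αv in the αvβ5 receptor. It was 11.93, 10.27 and 9.81 FPKM in shNC and 8.98, 11.47 and 10.15 FPKM in shPQBP1, with overlapping groups. The means were 10.67 ± 1.12 and 10.20 ± 1.25 (SD, n = 3), and the log2 fold change was -0.07 ± 0.12 SE (95% interval -0.37 to 0.24, adjusted p = 0.757). Its sign turned positive without shNC sample 1 and after the correction, at 0.02 in each. The upper end of its interval, 0.24, lies below the lower end of that of ITGB3, 0.84.

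**Figure D2:**
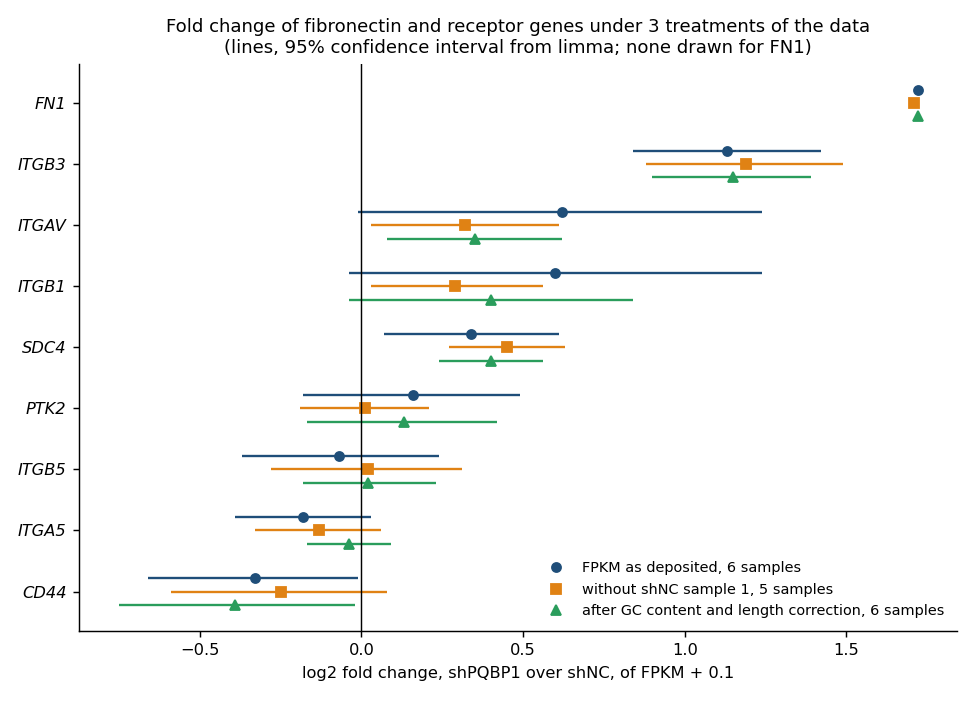
Log2 fold change (horizontal axis, shPQBP1 over shNC, of FPKM + 0.1) of FN1 and the 8 tested genes, from all 6 samples (circles), without shNC sample 1 (squares) and after the GC content and length correction (triangles). Lines are 95% confidence intervals from limma and are left out for FN1. FN1 and ITGB3 lie at similar values under all 3, whereas ITGAV goes from 0.62 to 0.32 and ITGB1 from 0.60 to 0.29 without shNC sample 1.

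Since alpha and beta chains work as pairs, the make-up of the receptor genes was compared within each sample. Scaling between samples has no part there, but a trend with GC content can. Each of 4 measures was tested with a two-sided exact permutation test, which cannot give a p below 0.1 with 3 against 3 samples. The share of ITGA5 in the FPKM sum of ITGA4, ITGA5 and ITGAV was 85.8%, 74.6% and 74.7% in shNC and 64.9%, 72.6% and 66.7% in shPQBP1. All shPQBP1 samples were below all shNC samples. The means were 78.4% ± 6.42 and 68.1% ± 4.03 (SD, n = 3), a difference of -10.3 percentage points (exact permutation p = 0.1, adjusted over the 4 measures 0.2), which was -6.57 without shNC sample 1. The canonical ITGA5 transcript has 58.0% G and C, against 38.3% for ITGAV, and the share was not computed after the GC and length correction. The part of base composition in this difference was thus not tested. The share of ITGB1 in the sum of ITGB1, ITGB3 and ITGB5 was 91.4% ± 3.92 in shNC and 93.1% ± 1.22 in shPQBP1 (SD, n = 3, exact permutation p = 0.8, adjusted 0.8). Without shNC sample 1 this difference of 1.71 percentage points became -0.546.

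The remaining measures were chosen after their values had been seen, so their p-values are a description and no support. The ratio of ITGB3 to ITGB5 FPKM was 0.304, 0.293 and 0.348 in shNC and 0.729, 0.672 and 0.796 in shPQBP1. ITGB3 was thus under the FPKM of ITGB5 in every sample, and the ratio was higher in all 3 shPQBP1 samples than in any shNC sample. The means were 0.315 ± 0.0288 and 0.733 ± 0.062 (SD, n = 3, exact permutation p = 0.1, adjusted 0.2). The difference of 0.418 was 0.412 without shNC sample 1. The last measure was the ratio of ITGB1 to the summed FPKM of the ITGA1 to ITGA11 genes and ITGAV, all of which can pair with it. It was 0.939 ± 0.292 in shNC and 1.13 ± 0.134 in shPQBP1, with overlapping samples (SD, n = 3, exact permutation p = 0.5, adjusted 0.667). The difference of 0.195 was 0.0324 without shNC sample 1.

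**Figure D3:**
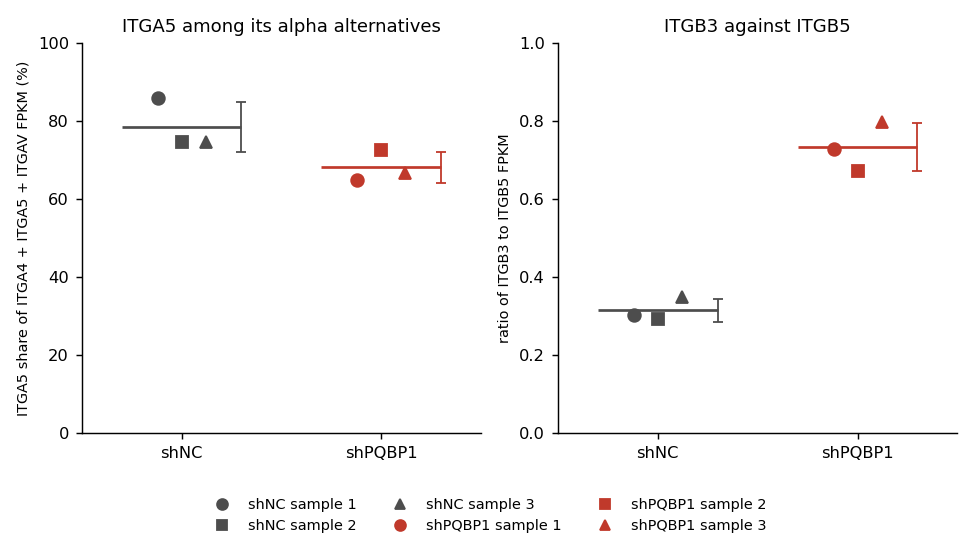
Left, the share (%) of ITGA5 in the summed FPKM of ITGA4, ITGA5 and ITGAV, and right, the ratio of ITGB3 to ITGB5 FPKM, in the shNC (grey) and shPQBP1 (red) samples, with the mean (line) and SD (bar, n = 3). The shPQBP1 shares of 64.9% to 72.6% lie below the shNC shares of 74.6% to 85.8%, and the shPQBP1 ratios of 0.672 to 0.796 lie above the shNC ratios of 0.293 to 0.348.

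SDC4 (chr20:45325288-45348424, minus strand) was 91.73, 71.47 and 75.16 FPKM in shNC and 93.12, 103.42 and 103.96 FPKM in shPQBP1. The groups did not overlap, with shPQBP1 sample 1 just above shNC sample 1. The means were 79.45 ± 10.8 and 100.17 ± 6.11 (SD, n = 3), and the log2 fold change of 0.34 ± 0.11 (SE, 95% interval 0.07 to 0.61) missed the threshold with an adjusted p of 0.147. In shNC sample 1, SDC4 was 1.25 times the mean of the other shNC samples, a deviation opposite to that of ITGAV and ITGB1. Without this sample the log2 fold change was 0.45 (adjusted p = 0.0421), and after the GC and length correction it was 0.40 (adjusted p = 0.0219).

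CD44 (chr11:35138882-35232402, plus strand) was 37.58, 28.13 and 35.43 FPKM in shNC and 26.52, 29.09 and 24.20 FPKM in shPQBP1. Its groups overlapped through shNC sample 2 and shPQBP1 sample 2. The means were 33.71 ± 4.95 and 26.60 ± 2.45 (SD, n = 3), with a log2 fold change of -0.33 ± 0.13 (SE, 95% interval -0.66 to -0.01) and an adjusted p of 0.203. CD44 was the least like FN1 of the 8 tested genes in its pattern over the 6 samples, a measure that largely restates the fold change. FPKM per gene do not separate the many splice forms of CD44 or those of FN1 that include or skip its alternative exons.

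PTK2 (ENSG00000169398) was 9.17, 12.53 and 12.27 FPKM in shNC and 12.45, 11.71 and 13.39 FPKM in shPQBP1. The groups overlapped, and shNC sample 1 was the lowest of the 6. The means were 11.32 ± 1.87 and 12.52 ± 0.842 (SD, n = 3), and the log2 fold change of 0.16 ± 0.14 (SE, 95% interval -0.18 to 0.49, adjusted p = 0.51) became 0.01 without shNC sample 1. The interval covers both a slightly lower and a moderately higher level of the kinase transcript.

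In shNC, the order of levels from high to low was ITGB1, SDC4, FN1, ITGA5, CD44, PTK2, ITGB5, ITGAV, ITGB3 and ITGA4. The samples of ITGA5 and CD44 overlapped there, as did those of PTK2 and ITGB5 and those of ITGB5 and ITGAV, while the other neighbours were separate. Without shNC sample 1, the shNC mean was 11.74 FPKM for ITGAV and 10.04 FPKM for ITGB5, so ITGAV then lay above ITGB5. In shPQBP1 the order was ITGB1, FN1, SDC4, ITGA5, CD44, ITGAV, PTK2, ITGB5, ITGB3 and ITGA4, and ITGAV and PTK2 alone overlapped among neighbours.

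Of 20 other integrin subunit genes, 5 passed the filter and 7 were below 0.1 FPKM in every sample. This list and those that follow were chosen with earlier results of these data known, so their counts are a description. None of the 5 had an adjusted p under 0.05 with limma, against 2.91% of all genes tested. At an unadjusted p under 0.05, 3 were called, all higher, and their groups did not overlap. Of all 11413 genes tested, 23.6% were called (1353 higher and 1336 lower), and 17.3% were higher without overlap. The median log2 fold change of the 5 was 0.53, against 0.021 over all genes. ITGA6, the alpha chain of laminin receptors, was 67.98, 80.05 and 77.07 FPKM in shNC and 114.93, 97.88 and 111.70 FPKM in shPQBP1. It missed the threshold narrowly (log2 fold change 0.53, adjusted p = 0.0508), and was past it after the GC and length correction (0.41, adjusted p = 0.0161). ITGA2, the alpha chain of a collagen receptor, was 2.65, 4.59 and 5.54 FPKM in shNC and 6.49, 11.27 and 13.36 FPKM in shPQBP1, with a wide spread in both groups (log2 fold change 1.26, adjusted p = 0.116). ITGB2, the leukocyte beta chain, had a log2 fold change of 0.60 (adjusted p = 0.0657, and 0.0177 after the correction). ITGA3, a laminin receptor chain, had a value of -0.06 (adjusted p = 0.642).

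**Figure D4:**
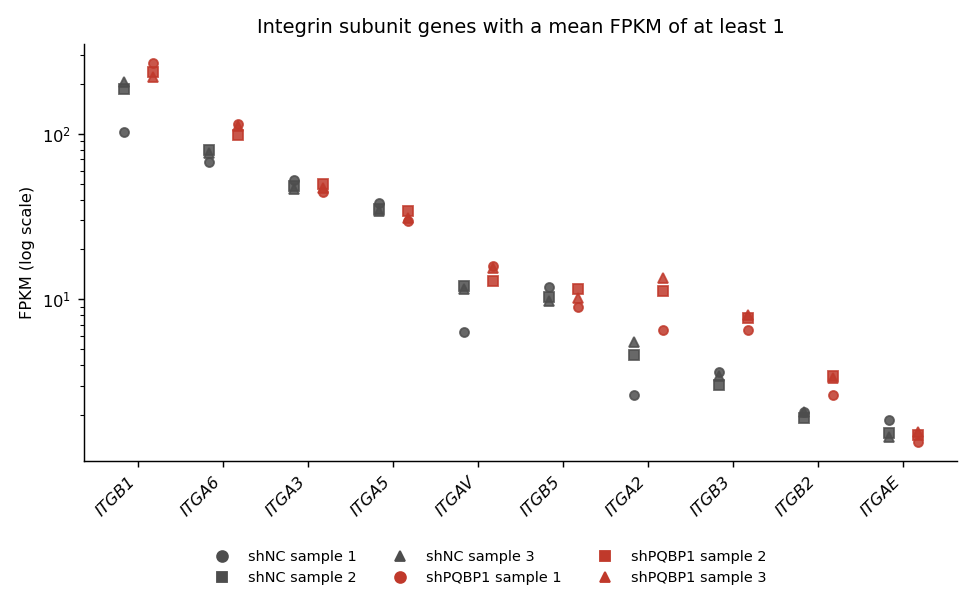
FPKM (vertical axis, log scale) of the 10 integrin subunit genes with a mean of at least 1 FPKM, in the 3 shNC (grey) and 3 shPQBP1 (red) samples, ordered by level. The levels run from 103.17 FPKM or more for ITGB1 to between 1.36 and 1.85 FPKM for ITGAE, and the shPQBP1 samples lie above all shNC samples for ITGB1, ITGA6, ITGAV, ITGA2, ITGB3 and ITGB2.

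Other ligands of the fibronectin-binding integrins were read from a list of 22 genes, chosen with earlier results of these data known. Its counts are therefore a description. The list also held FBLN1, which encodes a matrix protein that binds fibronectin. Of the 22 genes, 19 were read and 10 were tested. Of these, 3 rose (SPP1, TNC and L1CAM) and 1 fell (FBLN1) at an adjusted p under 0.05, and at an unadjusted p under 0.05 7 were higher and 1 lower. The groups did not overlap for the same numbers, 7 higher and 1 lower, and the median log2 fold change was 0.37. Over all genes tested, 2.91% were called at the adjusted p (1.73% higher and 1.18% lower). At the unadjusted p 23.6% were called, with 1353 of 11413 genes higher and 1336 lower. The groups did not overlap for 17.3% higher and 17.1% lower. SPP1, which encodes osteopontin, a ligand of αvβ3, was 14.42, 16.17 and 17.45 FPKM in shNC and 50.29, 44.84 and 43.47 FPKM in shPQBP1 (log2 fold change 1.52, adjusted p = 0.00389). L1CAM, a neural adhesion molecule that also binds integrins, was 1.68, 1.54 and 1.9 FPKM in shNC and 5.22, 6.29 and 5.76 FPKM in shPQBP1 (log2 fold change 1.70, adjusted p = 0.00473). Tenascin C (TNC), a matrix protein that binds fibronectin, was 25.38, 24.27 and 22.14 FPKM in shNC and 37.96, 40.20 and 39.04 FPKM in shPQBP1 (log2 fold change 0.71, adjusted p = 0.0154). FBLN1, the fibronectin-binding matrix protein fibulin, moved the other way, from 2.42, 2.51 and 2.28 FPKM to 0.71, 0.64 and 0.61 FPKM (log2 fold change -1.73, adjusted p = 0.00479). All 4 had groups that did not overlap. When each sample was left out in turn, SPP1, L1CAM and FBLN1 stayed under an adjusted p of 0.05 in all 6 fits. TNC did so only without shNC sample 1, and its adjusted p reached 0.0889. The matricellular genes CCN1 (0.22, adjusted p = 0.116) and CCN2 (0.36, adjusted p = 0.0818), the most abundant of the list, did not pass. Both were past the threshold without shNC sample 1 (adjusted p = 0.0416 for CCN1 and 0.0392 for CCN2) and after the GC and length correction (0.0145 and 0.00779). The gene ID of TGFB1 (ENSG00000105329) carries the symbol AC011462 in the table, so it is not among the 19. It had a log2 fold change of -0.36 and an adjusted p of 0.155. FGA and FGB were not analysed here.

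The list of other syndecans, glypicans and hyaluronan genes around CD44 had 17 genes and 11 tested, with 1 called, HAS2, which rose. At an unadjusted p under 0.05, 3 were higher and 1 lower, the groups did not overlap for 4 higher and 1 lower, and the median was 0.03. The corresponding shares of all genes tested were 2.91% at the adjusted p and 23.6% at the unadjusted p. At the unadjusted p, 1353 of 11413 genes were higher and 1336 lower. Without overlap, 17.3% were higher and 17.1% lower. HAS2, a hyaluronan synthase, was 2.13, 2.98 and 3.42 FPKM in shNC and 6.95, 6.13 and 6.68 FPKM in shPQBP1 (log2 fold change 1.21, adjusted p = 0.0272). The separation was clear, but its adjusted p stayed under 0.05 in the fit without shNC sample 1 alone and reached 0.124 in the other 5. Of the membrane linkers of CD44 to actin, MSN (-0.12, adjusted p = 0.345) and EZR (-0.37, adjusted p = 0.0961, and 0.0241 after the GC and length correction) did not pass. RDX, of the same kind, went the other way and did not pass either (0.69, adjusted p = 0.131, and 0.0448 after the correction). The syndecan SDC1 (0.03, adjusted p = 0.864) and the hyaluronan receptor HMMR (0.83, adjusted p = 0.211) also did not pass.

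Focal adhesion adaptors and kinases, through which integrins reach actin and signal with PTK2, numbered 40 with 37 tested, and none had an adjusted p under 0.05 with limma. At an unadjusted p under 0.05, 2 were higher and 5 lower, the groups did not overlap for 6 higher and 8 lower, and the median log2 fold change was -0.02. The shares of all genes tested were 2.91% at the adjusted p and 23.6% at the unadjusted p (1353 of 11413 genes higher and 1336 lower). Without overlap they were 17.3% higher and 17.1% lower, so that these counts lie near the background. The most abundant were ACTN4 (-0.02, adjusted p = 0.895) and FLNA (-0.12, adjusted p = 0.498), which crosslink actin, TLN1 (0.12, adjusted p = 0.417), which activates integrins, and the phosphatase PTPN11 (0.35, adjusted p = 0.286). Of the 37, 22 had a negative and 15 a positive log2 fold change.

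**Figure D5:**
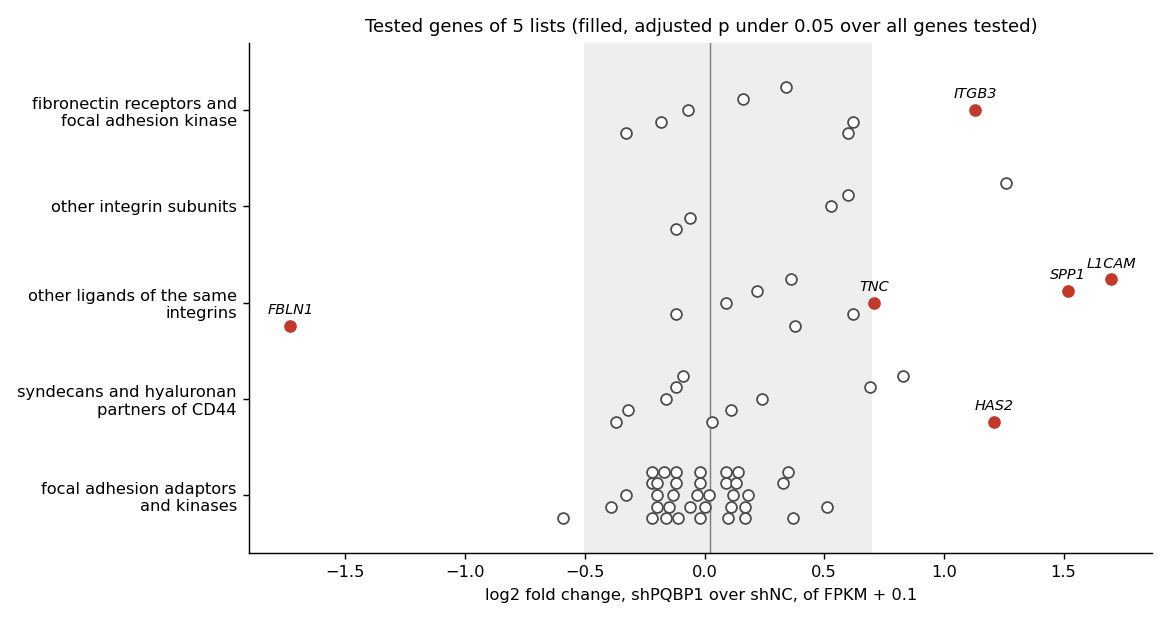
Log2 fold change (horizontal axis, shPQBP1 over shNC, of FPKM + 0.1) of each tested gene of the receptor set without FN1 and of the 4 further lists, with filled points for genes whose adjusted p was under 0.05. The grey band is the 5th to 95th percentile of all tested genes (-0.5 to 0.69) and the line their median. ITGB3, SPP1, L1CAM, TNC, HAS2 and FBLN1 are filled, and the focal adhesion genes lie almost all within the band.

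The genes most like FN1 were ranked by the root mean square difference of their log2 values over the 6 samples, each centred on its own shNC mean, a description with no test. The 5 nearest of 11412 genes were L1CAM at 0.103, KCNK3 at 0.106, IL1B at 0.134, ELK3 at 0.135 and SCG5 at 0.152. KCNK3, a potassium channel gene, was 0.91, 0.75 and 0.76 FPKM in shNC and 2.46, 3.33 and 3.04 FPKM in shPQBP1. IL1B, an inflammatory cytokine gene, was 27.79, 26.39 and 21.67 and then 68.28, 82.80 and 81.38 FPKM. ELK3, an ETS family transcription factor gene, was 18.65, 24.43 and 22.98 and then 72.34, 70.90 and 74.45 FPKM. SCG5, which encodes a secretory granule protein, was 0.90, 0.95 and 1.18 and then 3.68, 3.86 and 3.40 FPKM. All 5 had every shPQBP1 sample above every shNC sample, as the measure favours. Among the receptors ITGB3 was nearest to FN1, at 0.433 and place 35 of 11412, followed by ITGAV at 0.848 (place 687) and ITGB1 at 0.862 (place 774). CD44 was the farthest, at 1.47 and place 9977. Because values were centred on the shNC mean, this distance follows mainly from the fold change. The places largely restate the fold changes and are no separate evidence of likeness to FN1.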

How the data were processed

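RNA-seq of 3 shNC and 3 shPQBP1 samples of HEY cells was used, and the groups were taken from the sample titles. By the submitters' processing notes, the authors used HISAT2 (version 2.2.0) with hg38, SAMtools (version 1.9) and StringTie (version 1.3.0), and they deposited FPKM per gene and sample, rounded to 2 decimals. Neither the annotation release nor the FPKM settings are given in the sources used here. The deposited table also holds columns of the authors' edgeR comparison (fold change, p-value and q-value), which were not used. Without counts the depth is unknown, so no counting interval is given and the spread between samples stands for all error. The series design calls the samples biological triplicates.

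FPKM were used without further scaling. Genes with a mean of at least 1 FPKM over the 6 samples were tested on log2(FPKM + 0.1) using limma's moderated statistic (version 3.58.1, in R version 4.3.3) with a trend of variance on mean, and two-sided p-values were adjusted by the Benjamini-Hochberg method. The edgeR test that the authors used was not run, since it needs counts. Within-sample shares and ratios were compared with an exact permutation test (scipy version 1.17.1). The GC content and length correction subtracted, per sample, a fitted dependence of log2 values on both properties of the GENCODE release 44 canonical transcript (natural splines with 5 degrees of freedom), for 99.8% of the tested genes. Promoters are from RefSeq.

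Alternatives were median-of-ratios scaling, quantile normalization, pseudocounts of 0.01 and 1, a filter at a mean of 10 FPKM, a filter that kept every gene above 0 in any sample, limma without the trend, the sample number as a block, the GC content and length correction, and each sample left out in turn. The correction without shNC sample 1 was added after seeing the data. The genes and lists were chosen with earlier results of these data known. The genes named are the 10 of the set, PQBP1, from each further list the genes at an adjusted p under 0.05 and the 4 with the highest mean FPKM, the 5 genes most like FN1, and cell type markers. RDX was named in addition, as a linker of the same kind as MSN and EZR. The steps were tested on simulated data.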

Additional observations from a re-analysis of the deposited data

How the results depend on the processing

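The log2 fold changes of the 8 tested genes of the set kept their direction and side of the threshold in 110 of 119 fits under the alternatives. FN1, which was not tested, was at 1.67 to 1.81. ITGB3 stayed at 0.96 to 1.22 and was under an adjusted p of 0.05 in 10 of 14 alternatives, and it could not be tested at a mean FPKM of at least 10. ITGB5 turned positive after the GC content and length correction (0.024), without shNC replicate 1 (0.016), without shPQBP1 replicate 1 (0.021; -0.154 to 0.021 over all samples left out in turn) and with the correction and without shNC replicate 1 together (0.054). SDC4 passed the threshold with the correction and without shNC replicate 1, alone and together.

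Of all genes, 332 were called. The count was 190 for genes above 0 in at least 1 sample, 211 at a mean FPKM of at least 10, 938 with the correction (300 of them shared with the 332), 766 with the correction and without shNC replicate 1, and 30 to 466 with a replicate left out, where shNC replicate 1 gave the 466 and the others 30 to 93. The count of receptors called (1) was 0 at a mean FPKM of at least 10, 2 with the correction with or without shNC replicate 1, and 0 to 2 with a replicate left out. At an unadjusted p under 0.05 the count of receptors (3) was 5 with quantile normalization and 1 to 4 with a replicate left out, with 1 without shPQBP1 replicate 3. At a mean FPKM of at least 10, pseudocount 1 and the correction, respectively, the other integrin subunits called (0) were 1, 1 and 2. The other ligands called (4) were 2 at a mean FPKM of at least 10 and 7 with the correction. The syndecans and hyaluronan genes called (1) were 0 for genes above 0 in at least 1 sample and at a mean FPKM of at least 10, 3 with the correction, and 0 to 1 with a replicate left out. The focal adhesion genes called (0) were 1 with the correction and 0 to 1 with a replicate left out (1 without shPQBP1 replicate 1). The difference in the ITGA5 share was -12.5 to -6.57 percentage points and that in the ITGB1 share -0.546 to 3.0 with a replicate left out.

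With the replicate number as a block, 0 genes were called (1840 at an unadjusted p under 0.05), with 0 receptors (1 at an unadjusted p under 0.05), 0 other ligands and 0 syndecan and hyaluronan genes. The adjusted p was then 0.0686 for PQBP1, 0.146 for ITGB3, 0.0889 for SPP1 and L1CAM, 0.111 for FBLN1, 0.173 for TNC and 0.174 for HAS2. Samples with the same number did not deviate together (correlations of -0.186, -0.138 and -0.011), so the numbers were not taken as pairs, and each shNC sample correlated best with a shPQBP1 sample of another number. With 3 samples a group and no counts, small differences such as those of PTK2, ITGA5 and ITGB5 could not be resolved. Beyond the smaller number of samples or genes in some of these fits, the cause of the changes was not tested.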
